A study of Mus musculus with 14 samples.

Results

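The response of cultured mouse small cell lung cancer cells to 3 days of YAP5SA expression was measured by RNA sequencing, as the 2 libraries labelled day 3 against the 2 labelled day 0. These are 4 of the 14 libraries of the study, chosen by their labels, and all 32926 gene symbols of the count table are covered, of which 13996 had enough counts to be tested. The cells came from lung tumours of adult mice of mixed strain with the alleles CGRPCreER/+ and Rbf/f and further floxed alleles, so both days share floxed Rb1 and a Cre under the calcitonin promoter, which is active in neuroendocrine cells. The text of both day 3 libraries and of day 0 replicate 2 adds Rosa26rtTA and Tet-onYAP5SA, whereas that of day 0 replicate 1 lists neither. The labels state that the mice received TM and give 2 months, and that the lines were grown in Hites medium. They do not name an inducer or say how many independent lines or cultures the libraries represent, so p-values measure only the spread between these libraries, which may be technical. No library of day 3 without induction was analysed here, so YAP5SA, its inducer and time in culture cannot be told apart.

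YAP is a transcriptional coactivator that has no DNA-binding domain of its own and works through the TEAD factors. The LATS kinases of the Hippo pathway, which the MST kinases activate, phosphorylate YAP on serines, which keeps it in the cytoplasm and marks it for destruction. In YAP5SA these serines are alanines, so the kinases no longer hold it back. Small cell lung cancer is a neuroendocrine tumour in which loss of RB1 is the rule, and YAP is low or silent in most neuroendocrine cells and present in non-neuroendocrine ones.

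The 4 libraries held 9788032 to 10659524 counts over genes, with 3.13% to 3.85% of them from mitochondrial genes. Values are CPM, counts scaled to a common effective library size, and with n = 2 per day each library is given in replicate order. With 2 libraries a day, days can fail to overlap without any change, and the share of all genes that did so is not given. A gene with 0 counts over both libraries of a day can hold up to 3 counts, 0.141 CPM at day 0 and 0.142 CPM at day 3, and such limits cover counting error only. The libraries of a day correlated across genes at r = 0.9973 for day 0 and 0.9957 for day 3, where genes are not independent replicates. The counts of the day 3 pair differed by more than those of the day 0 pair, with a chi-square per gene of 4.61 against 1.76, where 1 is sampling noise. A neuroendocrine library of the study, NE replicate 2, had more counts than day 0 replicate 1 in 0 of 32926 genes and matched a random 85.7% of it at a chi-square of 1.02 per gene, so the 2 appear to share reads, and NE replicate 2 entered the fit of all 14 libraries only. Markers of the neuroendocrine state were present at day 0, with Insm1 at 403 and 420.1 CPM, Chga at 527 and 515 CPM, Syp at 128 and 151 CPM and Ncam1 at 61.6 and 64.3 CPM. Calca, the calcitonin gene whose promoter drives the Cre allele, had 0 counts in all 4 libraries.

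Within 3 days 6801 of the 13996 tested genes (48.6%) passed an adjusted p of 0.05 in edgeR's quasi-likelihood test. They comprised 3673 higher genes (26.2%) and 3128 lower genes (22.3%), and these shares are the background for every list below. A list share near its background is no finding about that list, whether or not this is repeated there. The change was lopsided in size, as the plot of called genes by fold shows. At least 2-fold rises were called in 1325 genes (9.47%) and falls of that size in 617 (4.41%), at least 4-fold in 671 (4.79%) and 63 (0.45%), and at least 10-fold in 346 (2.47%) and 5 (0.0357%). A rise of at least 100-fold was called in 83 genes (0.593%), and a fall of that size in 0. Of genes with 0 counts at day 0, 53 stood at 1 CPM or more at day 3, and no gene made the opposite step. Likewise 63 genes moved from under 1 CPM to at least 10 CPM and 0 the other way. The median log2 change over all tested genes was 0.0094. When all 14 libraries entered one fit and shared its estimate of the spread, 1041 genes were called. That fit includes NE replicate 2, which appears to share reads with day 0 replicate 1. Of the 363 called genes examined singly 217 lost their call in it, as did 11 of the 15 largest falls and 0 of the 15 largest rises. For each list the median log2 change is followed by its 14-library calls, the numbers of members called higher and lower in that fit. A listed gene near 0 at day 0 passed the count filter only through a later day, which fixed part of its direction. Under 1 CPM at day 0 stood 8 of 22 alveolar type I markers, 32 of 42 matrix genes and 16 of 28 integrins and laminins. So did 22 of 34 protease genes, 12 of 25 non-neuroendocrine genes, 11 of 24 S100 and annexin genes and 10 of 12 fibroblast markers.

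**Figure D1:**
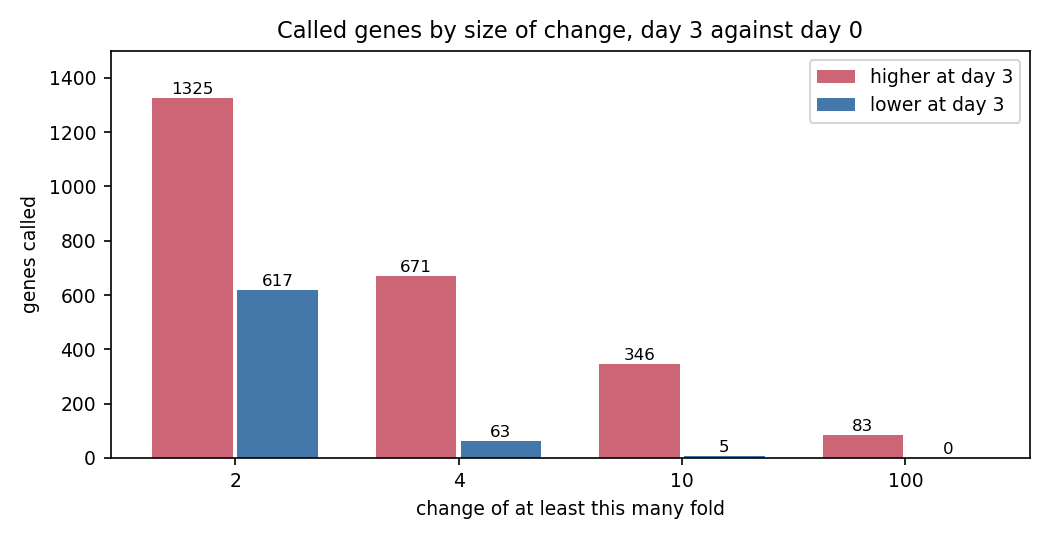
Number of called genes (vertical axis) whose change from day 0 to day 3 reached at least 2, 4, 10 or 100 fold (horizontal axis), with genes higher at day 3 in red and genes lower at day 3 in blue. Rises outnumbered falls at every size, from 1325 against 617 at 2-fold to 83 against 0 at 100-fold.

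Yap1 transcripts rose within 3 days, and their mean at day 3 was above those of days 7 and 21. Yap1 (chromosome 9, 7931999 to 8004596 on the minus strand of mm10) stood at 7.96 and 7.21 CPM at day 0 and 1239 and 1067 CPM at day 3. Day 3 did not overlap day 0, which with 2 libraries a day can occur without any change. The level was 152-fold higher at day 3 (edgeR log2 change 7.25, SE 0.12, adjusted p = 3.86e-24). Later libraries held 779 ± 40.6 CPM at day 7 and 219 ± 6.6 CPM at day 21. A single count per gene cannot separate endogenous from transgenic transcripts, and how far transgene reads were counted under Yap1 was not checked. Wwtr1, the gene of TAZ, a paralogue of YAP, was at 0 counts at day 0 and 0.0976 and 0.0923 CPM at day 3, below the floor. Rb1, floxed in these mice, fell 1.46-fold (79.8 and 77.4 to 49.7 and 58 CPM). Counts per gene cannot show whether floxed exons were covered.

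Several TEAD genes, whose products carry YAP to DNA, rose. Of 10 YAP, TAZ, TEAD and VGLL genes 9 could be tested, of which 6, Yap1 included, were called higher and 0 lower (median log2 change 1.46, 14-library calls 3 and 0). Tead4 had 0 counts in both day 0 libraries and stood at 26.3 and 27.9 CPM at day 3, at least 192-fold higher. Its mean at day 7 was 87.1 ± 0.603 CPM. Tead1 rose from 219 and 216 to 574 and 627 CPM (2.76-fold), and Tead3 from 14.5 and 15.9 to 37.9 and 42.8 CPM (2.65-fold). Tead2 was at 3.79 and 3.46 CPM at day 0 and 4.2 and 4.43 CPM at day 3 and was not called. Among the VGLL cofactors, which compete with YAP for TEAD, Vgll4 rose 1.61-fold (56.3 and 55.2 to 81.6 and 98.1 CPM). Vgll1 rose from 2 counts at day 0, with a count ratio of 9.06 with a 95% counting interval of 2.17 to 80.5.

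Genes widely used as a readout of YAP and TAZ rose early, though not all of them. Of the 22 genes of a common YAP/TAZ target signature 20 could be tested, 12 were called higher and 3 lower, with a median log2 change of 2.25 (14-library calls 9 and 0). A listed gene near 0 at day 0 could pass the count filter only through a later day, which fixed part of the direction. Cyr61, a secreted matricellular protein, stood at 0.19 and 0.187 CPM at day 0 and 167 and 206 CPM at day 3 and was 930.1-fold higher (edgeR log2 change 9.86, adjusted p = 4.86e-21). The fold of Cyr61 rests on few day 0 counts and is uncertain. Ctgf, its relative, had 0 counts at day 0 and at least 65.8-fold more at day 3 (8.79 and 9.78 CPM). Ankrd1, a nuclear ankyrin repeat protein, also had 0 counts at day 0 and was at least 118-fold higher (13.3 and 19.7 CPM). With all 14 libraries in the fit Ctgf was not called (edgeR adjusted p = 0.132). In none of the 3 did the days overlap, which with 2 libraries a day can occur without any change. All 3 stood higher again later, Ctgf at 128 ± 0.387 CPM at day 7 and 545 ± 2.39 CPM at day 21.

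Myof, a membrane repair protein gene, rose with a count ratio of 75.5 with a 95% counting interval of 20.6 to 629. Moderate rises from a clear starting level were found in the tissue factor gene F3 (29.5 and 28.2 to 123 and 151 CPM, 4.75-fold), the ectonucleotidase gene Nt5e (4.78-fold), Crim1 (3.58-fold) and Gadd45a (3.21-fold), of which Nt5e was not called with all 14 libraries (edgeR adjusted p = 0.3). Nuak2 was called 1.32-fold higher but lost its call without day 3 replicate 1. The 3 lower members, Dock5 (1.42-fold), Asap1 and Arhgef17, changed little, and the latter pair lost their calls when day 0 replicate 1, day 0 replicate 2 or day 3 replicate 2 was left out (Arhgef17 also without day 3 replicate 1). Some signature genes stayed at or near 0. Igfbp3 had 0 counts in all 4 libraries, Axl was at 0.0948 and 0.0936 CPM at day 0 and 0 and 0.184 CPM at day 3, and Tgfb2 was at 0.379 and 0.468 CPM at day 0 and 0.781 and 0.0922 CPM at day 3, with overlapping days. At day 21 Axl reached 223 ± 0.083 CPM and Tgfb2 82.5 ± 9.06 CPM.

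Regulators of YAP were among the steepest rises. Of the 30 Hippo kinases, scaffolds and regulators 28 were tested, 20 were called higher and 3 lower (median log2 change 0.62, 14-library calls 10 and 0), and 9 of the rises reached 2-fold. Ajuba, a LIM scaffold that holds LATS kinases in check, was at 0.19 and 0.187 CPM at day 0 and 253 and 323 CPM at day 3, 1435-fold higher (edgeR log2 change 10.49, adjusted p = 8.68e-22). The fold of Ajuba rests on few day 0 counts and is uncertain. Lats2, a kinase that inactivates YAP, was at 0.0948 and 0.187 CPM at day 0 and 72.3 and 87.1 CPM at day 3, which gives a count ratio of 565 with a 95% counting interval of 193 to 2744. Its paralogue Lats1 was at 103 and 97.8 CPM at day 0 and 106 and 96.7 CPM at day 3, with overlapping days and no call.

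Amotl2, an angiomotin that tethers YAP outside the nucleus, rose 137-fold (3.6 and 4.87 to 520.5 and 642 CPM), and its relative Amotl1 1.58-fold (129.5 and 123 to 198 and 201 CPM). Ptpn14, a phosphatase that binds YAP, rose 29.5-fold (2.84 and 2.81 to 75.7 and 91.7 CPM), and the LIM protein gene Wtip 3.98-fold (18.1 and 21.1 to 72.7 and 83.1 CPM). Of the KIBRA scaffolds, Wwc2 rose from 2 counts at day 0 (a count ratio of 161 with a 95% counting interval of 44.2 to 1336), and Wwc1 rose 2.48-fold from a clear starting level (114 and 114 to 292 and 274 CPM). The upstream kinase gene Taok3 rose 3.21-fold (32.8 and 31.3 to 102 and 104 CPM) while Taok2 fell 1.41-fold (272 and 282 to 202 and 193 CPM). Nf2 was called 1.16-fold higher, and the cadherin gene Fat1 and the polarity gene Scrib were called lower by 1.16-fold and 1.18-fold. Those 3 calls did not stand without day 0 replicate 1, day 0 replicate 2 or day 3 replicate 2 (Scrib also without day 3 replicate 1, Nf2 also by library totals). Without day 0 replicate 1, 18 members were higher and 1 lower.

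**Figure D2:**
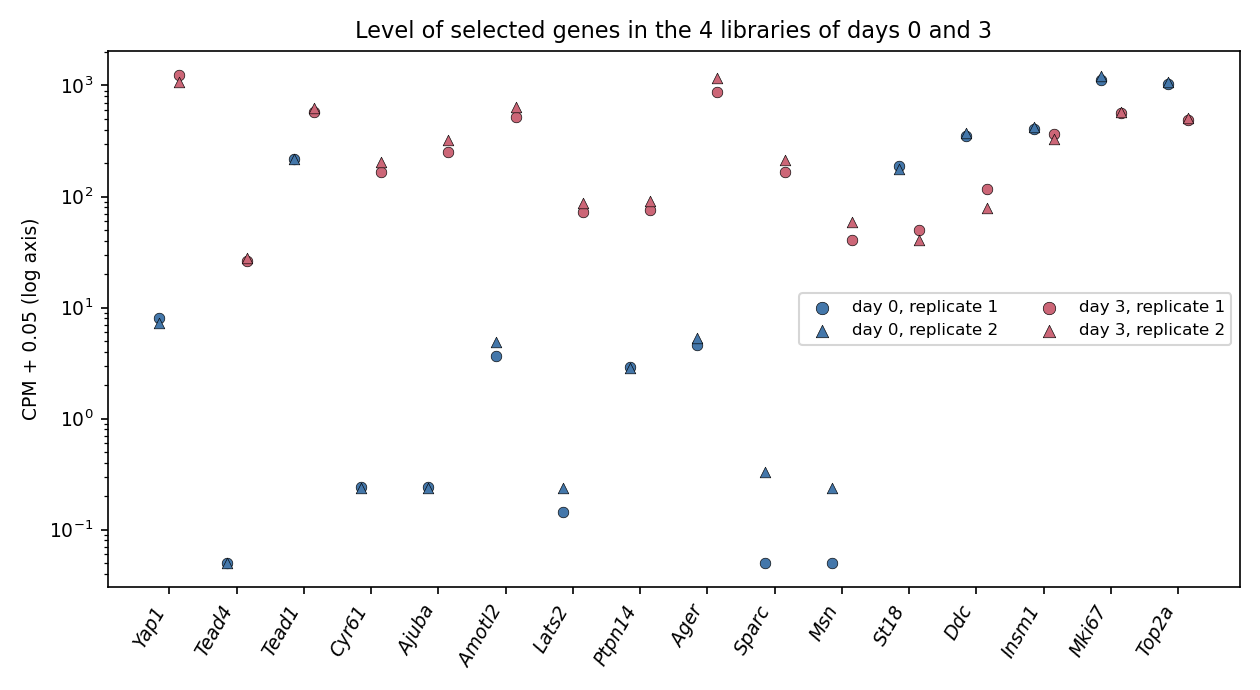
Level of 16 genes (CPM plus 0.05 on a log axis) in each of the 4 libraries, day 0 in blue and day 3 in red, with circles for replicate 1 and triangles for replicate 2. The 16 genes were picked for display, and the days do not overlap for any of them, which with 2 libraries a day can occur without any change. Yap1, Tead4, Cyr61, Ajuba and Lats2 lie far higher at day 3, and St18, Ddc, Mki67 and Top2a lie lower.

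The promoters of 3 of these genes are shown because each holds the core letters bound by TEAD factors within the 250 bases before a RefSeq start. The sequences come from RefSeq on GRCm38.p6 (mm10), read 5′ to 3′ along the gene, and capitals mark GGAATG or its reverse complement CATTCC.
Ajuba (chr14:54577662-54577911, minus strand): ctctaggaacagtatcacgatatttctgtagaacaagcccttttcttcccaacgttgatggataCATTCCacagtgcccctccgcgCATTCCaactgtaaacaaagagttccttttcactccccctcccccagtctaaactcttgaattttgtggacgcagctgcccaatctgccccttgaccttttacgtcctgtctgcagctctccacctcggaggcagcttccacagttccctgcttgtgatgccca
Cyr61 (chr3:145649986-145650235, minus strand): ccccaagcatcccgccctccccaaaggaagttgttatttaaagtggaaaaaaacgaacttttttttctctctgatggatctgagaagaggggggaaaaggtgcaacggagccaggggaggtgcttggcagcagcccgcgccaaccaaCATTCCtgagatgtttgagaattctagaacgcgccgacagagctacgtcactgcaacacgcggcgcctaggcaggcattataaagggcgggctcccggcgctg
Ptpn14 (chr1:189728018-189728267, plus strand): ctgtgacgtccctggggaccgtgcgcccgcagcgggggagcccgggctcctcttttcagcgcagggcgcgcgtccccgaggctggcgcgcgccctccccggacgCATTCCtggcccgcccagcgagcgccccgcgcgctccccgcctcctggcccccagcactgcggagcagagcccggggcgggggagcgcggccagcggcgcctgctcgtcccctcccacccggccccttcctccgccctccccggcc
The Ajuba window held 2 matches, which begin 186 and 164 bases before the start, and the windows of Cyr61 (Ccn1 in RefSeq) and Ptpn14 held 1 each, 103 and 146 bases before it. Over the RefSeq windows of 300 bases, 250 before to 50 after a start, these letters on either strand occurred in 14.7% of all 32851 windows. They occurred in 10 of 28 windows (35.7%) of the 23 matched Hippo regulators, out of 28 tested, and in 10 of 46 (21.7%) for 37 matched actin and focal adhesion genes, out of 46. For alveolar type I markers, 17 of 21 of which matched, 1 of 24 windows (4.17%) held them. The window table matched 13 of the 20 tested signature genes and 77.7% of all tested genes, too few for a share of either, so none is given. A match is a description of letters and no evidence of binding.

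The rule for the largest changes, which took called genes that reached 10 CPM on their higher day without overlap, named 15 rises that began at or near 0. The kinesin gene Kifc3 (22.3 and 30.7 CPM), the syntaxin gene Stx11 (20.4 and 28.5 CPM) and the RNA-binding protein gene Igf2bp1 (8.98 and 12.4 CPM) had 0 counts at day 0. They were at least 188-fold, at least 174-fold and at least 75.9-fold higher. Sparc, a collagen-binding matrix protein, stood at 0 and 0.281 CPM at day 0 and 167 and 212 CPM at day 3, with a count ratio of 1347 with a 95% counting interval of 461 to 6536.

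Lims2, a focal adhesion adaptor also known as PINCH2, rose from 3 counts at day 0 to 118 and 157 CPM, with a count ratio of 975 with a 95% counting interval of 333 to 4733. The ATP-gated channel gene P2rx2 rose from 2 counts to 70.6 and 99.7 CPM, with a count ratio of 908 with a 95% counting interval of 251 to 7506. Slc6a14, an amino acid transporter, reached 52.6 and 55.9 CPM, and Msn, which encodes moesin, a linker of actin to the membrane, 40.5 and 59.1 CPM. Tead4, Ajuba, Ankrd1, Cyr61 and Lats2 are given above, and Clic5 is described with the alveolar markers. In each of the 15 the lower day 3 library lay above both day 0 libraries, which the rule required. Outside this rule, the small heat shock protein gene Cryab rose 382-fold (0.853 and 1.87 to 445 and 609 CPM), the tensin gene Tns1 rose from 1 count to 21.4 and 22.7 CPM, and Krt4, a keratin of stratified epithelia, rose 304-fold (1.42 and 1.22 to 400.1 and 409.9 CPM).

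Genes that mark the alveolar type I cell, the flat gas-exchange cell of the lung, were mostly called higher. Of 22 markers 21 could be tested, 19 were called higher and 0 lower, and the median log2 change was 3.75 (14-library calls 12 and 0). Of the 22, 8 stood under 1 CPM at day 0 and 4 of them had 0 counts, so the count filter fixed part of the direction. Ager, the RAGE receptor and a defining marker, stood at 4.55 and 5.24 CPM at day 0 and 871 and 1164 CPM at day 3 (207-fold; edgeR log2 change 7.70, SE 0.19, adjusted p = 1.53e-17). Clic5, a chloride channel protein tied to the actin cortex, had 0 counts at day 0 and 13.9 and 17.3 CPM at day 3. Hopx, a homeodomain cofactor, rose 126-fold (0.19 and 0.375 to 27.8 and 46.3 CPM) and the scaffold gene Ahnak 152-fold (1.9 and 0.749 to 185 and 219.5 CPM). None of these overlapped between days, which with 2 libraries a day can occur without any change.

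Other type I genes rose from a clear starting level. These were the membrane protein gene Emp2 (69.9 and 70.2 to 1099 and 1300 CPM, 17.1-fold), Gprc5a (7.77 and 9.46 to 485 and 567 CPM, 60.9-fold), Akap5 (50.9-fold), the water channel gene Aqp5 (7.77 and 6.46 to 48.8 and 54.7 CPM, 7.27-fold) and the sodium channel subunit gene Scnn1g (15.9-fold). Pdpn, which encodes podoplanin, rose 12.1-fold but stayed low (0.284 and 0.187 to 3.03 and 2.95 CPM) before 261 ± 11.1 CPM at day 7 and 718 ± 56 CPM at day 21. Cav1, the caveolin of type I cells, had 0 counts at day 0 and in 1 of the 2 day 3 libraries, and 242 ± 29 CPM at day 21. Vegfa rose 1.49-fold (528 and 499 to 660.2 and 867 CPM).

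Markers of other lung epithelial cells showed no common direction. Of 20 alveolar type II, club, ciliated and basal markers 15 were tested, with 6 higher and 3 lower (median log2 change 0.86, 14-library calls 1 and 0). The surfactant gene Sftpc fell 3.04-fold from a low level (3.51 and 3.75 to 1.27 and 1.11 CPM), the ciliary factor gene Foxj1 fell 2.23-fold, and Napsa rose 3.83-fold (1.71 and 1.12 to 4.59 and 6.27 CPM). Sftpd had 0 counts at day 0 and 0.488 and 0.0923 CPM at day 3, a call that did not stand without day 0 replicate 1, day 0 replicate 2 or day 3 replicate 1. The club cell gene Scgb1a1 was at or under 0.187 CPM in all 4 libraries, the basal keratin gene Krt5 had a count in 1 of them and Trp63 in 0.

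Epithelial adhesion and keratin genes split, with a share of falls near the 22.3% of all tested genes. Of 44 genes 41 were tested, 22 were called higher and 8 lower (median log2 change 0.35, 14-library calls 8 and 0). Among keratins of simple epithelia, Krt19 stood at 3.89 and 4.03 CPM at day 0 and 103 and 141 CPM at day 3 (30.7-fold higher) and Krt7 and Krt18 rose 3.09-fold and 1.42-fold, while Krt8 was at 481 and 519 CPM at day 0 and 447 and 438 CPM at day 3 and was not called. The tight junction genes Cldn4 (15.3-fold) and Cldn3 (2.02-fold), the desmosome genes Jup, Ppl, Evpl and Perp, and the grainyhead factor gene Grhl1 (1.82-fold) rose as well. Cdh1, which encodes E-cadherin, was at 877 and 911 CPM at day 0 and 839.9 and 808 CPM at day 3 and was not called. Lower members included the epithelial transcription factor genes Ehf (437 and 418 to 187 and 174 CPM, 2.37-fold) and Elf3 (1.55-fold), the adhesion gene Epcam (856 and 844 to 598 and 574 CPM, 1.45-fold), Tjp3 and Muc1.

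**Figure D3:**
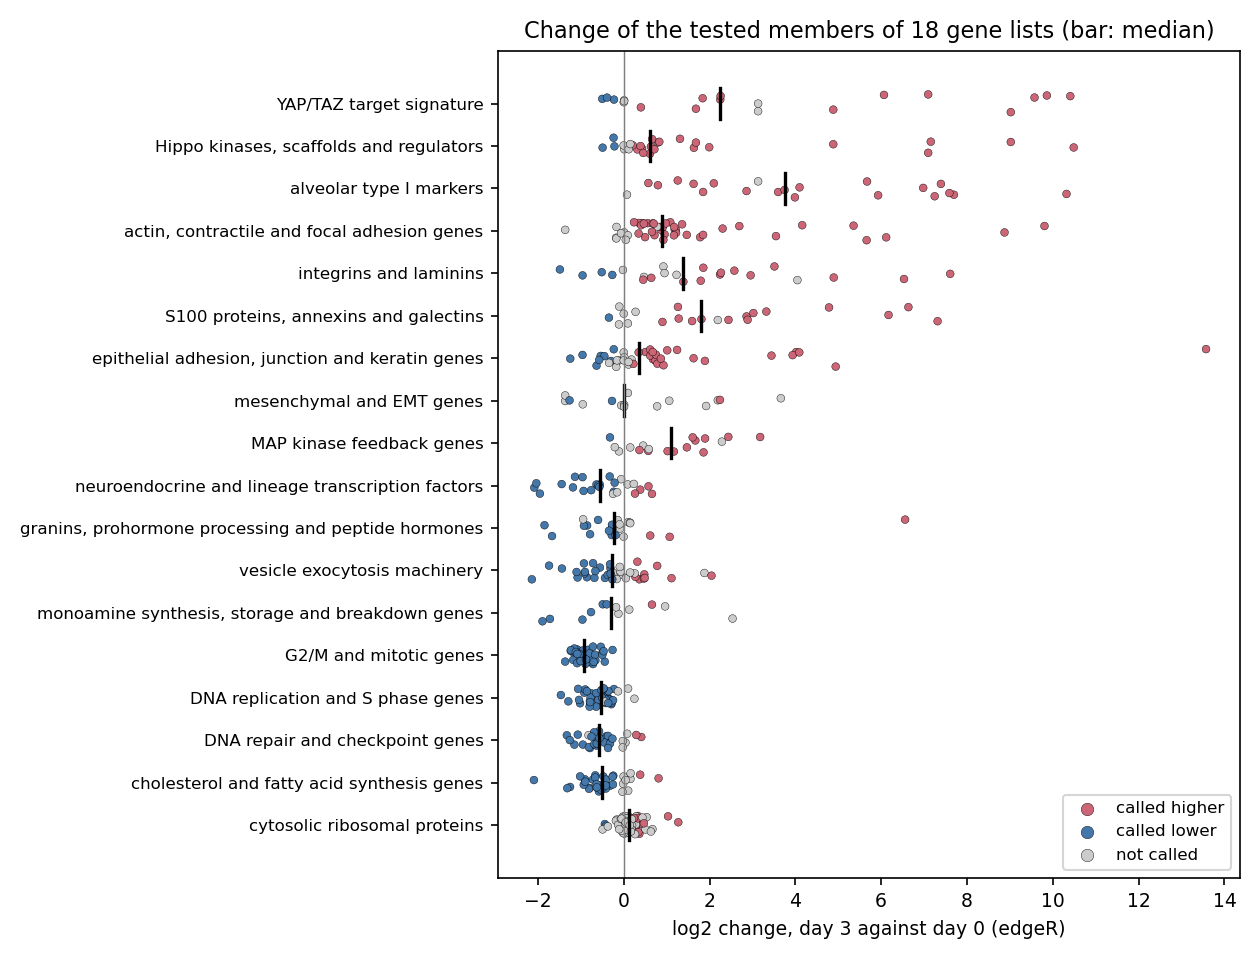
Log2 change from day 0 to day 3 in edgeR (horizontal axis) of each tested member of 18 gene lists (vertical axis), with called rises in red, called falls in blue, other genes in grey and the list median as a black bar. The bar lies at 3.75 for alveolar type I markers and at -0.93 for G2/M and mitotic genes, of which all 38 are blue, against 0.0094 for all tested genes.

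Actin and focal adhesion genes rose broadly. Of 47 genes 46 were tested, 37 were called higher and 0 lower, with 19 rises of at least 2-fold and a median log2 change of 0.89 (14-library calls 13 and 0). Scaling by library totals alone called Tes, Actn1 and Parvb lower, and 1 gene was called lower without day 0 replicate 1 (Parvb) or day 3 replicate 1 (Tes). The myosin light chain gene Myl12a rose 6.47-fold (92 and 92.6 to 545 and 650.0 CPM) and Myl9 with a count ratio of 75.2 with a 95% counting interval of 25.4 to 367. Vinculin, Vcl, which links adhesions to actin, rose 3.44-fold (33.1 and 29.6 to 103 and 113 CPM). The calponin gene Cnn2 rose 17.9-fold (6.35 and 6.37 to 111 and 117 CPM) and caldesmon, Cald1, 4.94-fold (37.4 and 37.8 to 179.5 and 192 CPM). Actb, Actg1, Flna, Tln1, Zyx, Rhoa, Rhob and Rhoc rose by 1.38-fold to 2.33-fold.

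Several genes of the basement membrane and its receptors rose. Of 28 integrins and laminins 23 were tested, 13 were called higher and 4 lower (median log2 change 1.39, 14-library calls 7 and 0). The laminin subunit gene Lamb3 rose 92.5-fold (0.379 and 0.281 to 31.1 and 32.1 CPM), with Lama5 (5.97-fold) and Lamc1 (3.47-fold). The laminin receptor gene Itga3 rose 2.62-fold (157 and 168 to 409.7 and 440.3 CPM), and Itgb6, the integrin subunit that activates latent TGF-beta, 29.7-fold (0.758 and 0.843 to 22.3 and 26 CPM). Itga7, Itgb3 and Lamb1 fell, and Itga6 was called lower, which did not stand without day 0 replicate 1 or day 3 replicate 2.

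Among 42 collagens and matrix proteins 28 were tested, with 11 higher and 3 lower (median log2 change 1.6, 14-library calls 8 and 0). The heparan sulfate proteoglycan genes Agrn (60.3 and 52 to 503 and 629 CPM, 10.1-fold) and Hspg2 (7.23-fold), the type IV collagen genes Col4a3 (13.4-fold) and Col4a4 (18.5-fold) and thrombospondin, Thbs1 (47.6 and 59.8 to 327 and 436 CPM, 7.1-fold), rose. Versican, Vcan, fell 2.58-fold (35.2 and 37.5 to 14.3 and 13.8 CPM) and Col6a1 2.1-fold. Col1a1 was at 0.474 and 0.281 CPM at day 0 and 0.391 and 0.277 CPM at day 3 with overlapping days, and Col3a1 and Lum had 0 counts throughout.

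Few mesenchymal genes were called at this time. Of 22 such genes 15 could be tested, 1 was called higher and 2 lower, and the median log2 change was 0.01 (14-library calls 0 and 1). The higher gene was the fibronectin receptor subunit Itga5 (6.07 and 5.34 to 22.8 and 31.2 CPM, 4.73-fold), and the lower ones were Spock1 (2.4-fold) and Tcf4, whose call did not stand without day 0 replicate 2 or day 3 replicate 2. Leaving out day 3 replicate 1 called 3 higher, and leaving out day 0 replicate 2 called 2. Vim, the intermediate filament of mesenchymal cells, had 0 counts at day 0 and 0.195 and 0.0923 CPM at day 3. Zeb1 had 0 counts in all 4 libraries, Cd44 was at 0.284 and 0 CPM at day 0 and 0.0976 and 0 CPM at day 3, and Cdh2, which encodes N-cadherin, was at 103 and 105 CPM at day 0 and 101 and 98.4 CPM at day 3 with no call. Vim reached 21.6 ± 3.12 CPM and Cd44 33.5 ± 14.7 CPM at day 21.

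Membrane-associated S100 proteins, annexins and galectins rose in 14 of 21 tested genes out of 24, with 1 lower and a median log2 change of 1.81 (14-library calls 10 and 0). Galectin-3, Lgals3, rose 159-fold (0.19 and 0.843 to 79.7 and 89.1 CPM), Anxa3 72.1-fold (0.853 and 0.562 to 51.2 and 52.4 CPM) and S100a1 7.27-fold (48.8 and 54.1 to 336 and 413 CPM). S100a10 and its partner Anxa2 form a plasminogen-binding complex. Anxa2 rose 3.51-fold (101 and 94.1 to 308 and 378 CPM), S100a10 rose from 3 counts to 3.61 and 4.80 CPM, and the urokinase receptor gene Plaur rose 16.6-fold (1.61 and 1.78 to 24.7 and 31.9 CPM). Of 34 plasminogen system, serpin and metalloproteinase genes 14 of 25 tested were higher and 2 lower (median log2 change 1.19, 14-library calls 8 and 0). The caveolar coat genes Ptrf (6.74-fold) and Sdpr (6.27-fold) rose among 5 of 8 tested caveolae genes of 9, with 0 lower (median log2 change 2.70, 14-library calls 2 and 0).

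More neuroendocrine transcription factors were called lower than higher, though few of them with all 14 libraries. Of 38 neuroendocrine and lineage factors 25 could be tested, 16 were called lower and 4 higher, with a median log2 change of -0.56 (14-library calls 0 and 4). St18, a zinc finger factor, fell 4.1-fold (189.9 and 178 to 49.6 and 40.1 CPM), and its relatives Myt1l (2.27-fold) and Myt1 (1.69-fold) fell less. In a bulk sample, fewer cells with a transcript and less of it per cell cannot be told apart.

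The SRY-box factor gene Sox1 fell 2.72-fold (218 and 223 to 94.2 and 68.2 CPM) and Sox2 2.2-fold (26.6 and 24.1 to 11.9 and 11.2 CPM). Hes6, Id2, Foxa1, Foxa2, Prox1 and Mycl fell by 1.47-fold to 1.94-fold. Insm1, a zinc finger factor of neuroendocrine cells, was at 403 and 420.1 CPM at day 0 and 367 and 333 CPM at day 3, called 1.18-fold lower, and lost that call without day 0 replicate 2 or day 3 replicate 2. Nkx2-1, the lung lineage factor, rose 1.3-fold (816 and 752 to 921 and 1126 CPM), with Sox4 (1.49-fold), Onecut2 (1.2-fold) and Id1 (1.58-fold). Neurod1 had 1 count in these 4 libraries and Pou2f3, the tuft cell factor, 0.

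The largest falls named by the rule ran from 3.73-fold to 6.25-fold and were modest beside the rises. B3galt5 (chromosome 16, 96235801 to 96319859 on the plus strand), a glycosyltransferase, stood at 31.4 and 31.6 CPM at day 0 and 4.98 and 5.07 CPM at day 3, 6.25-fold lower (edgeR log2 change -2.65, SE 0.17, adjusted p = 1.05e-12). The muscle protease gene Ky fell 6.16-fold (12 and 12.6 to 2.05 and 1.94 CPM) and Islr2, a neurite outgrowth protein, 5.9-fold (16.5 and 17.2 to 3.22 and 2.49 CPM). Bcas1 fell 4.99-fold (49.2 and 50.9 to 12.6 and 7.56 CPM), the coiled-coil gene Ccdc154 5.11-fold (40.9 and 50.1 to 11.7 and 6.18 CPM) and Ccdc33 3.73-fold. In each of these both day 3 libraries lay under both day 0 libraries, which the rule required.

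The kinase gene Plk5 fell 4.17-fold (102 and 100.4 to 28 and 20.6 CPM), the hexosamine enzyme gene Gfpt2 4.13-fold (11.7 and 8.8 to 2.05 and 2.86 CPM), the synaptic adhesion gene Igsf21 4.08-fold (19.1 and 18.6 to 5.08 and 4.15 CPM) and the long noncoding RNA Miat 3.9-fold (18.6 and 18.2 to 4.69 and 4.71 CPM). Dcpp1, Dcpp2 and Dcpp3, near-identical genes of demilune cell and parotid proteins, fell 3.92-fold to 4.24-fold. Reads of these 3 may have been split among copies, so they are uncertain as separate genes. St18 is also among the 15. With all 14 libraries in the fit 11 of the 15 were not called, namely B3galt5 (edgeR adjusted p = 0.133), Bcas1 (edgeR adjusted p = 0.0676), Ky, Ccdc33, Plk5, Gfpt2, Igsf21, Miat, Dcpp1, Dcpp2 and Dcpp3, whereas Islr2, Ccdc154 and St18 were.

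Genes for peptide hormones and their processing fell in part. Of 31 granin, prohormone processing and hormone genes 22 were tested, 11 were called lower and 3 higher (median log2 change -0.23, 14-library calls 1 and 1). The prohormone convertase genes Pcsk1 (442 and 461 to 263 and 236 CPM, 1.81-fold) and Pcsk2 (329 and 370.2 to 189 and 179 CPM, 1.9-fold) fell, as did the granin genes Chga (527 and 515 to 372 and 317 CPM, 1.51-fold) and Chgb (1.2-fold). Scg2 and Scg3 were called lower by 1.21-fold and 1.14-fold, calls that did not stand in fits that left out a library (day 0 replicate 2 or day 3 replicate 2 for both, and day 0 replicate 1 for Scg3). Vgf rose 1.53-fold (88.5 and 87.9 to 132 and 139 CPM). Pthlh, parathyroid hormone-related protein, had 0 counts at day 0 and 1.27 and 1.02 CPM at day 3. Grp, gastrin-releasing peptide, fell 3.18-fold (5.4 and 4.03 to 1.76 and 1.2 CPM).

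Vesicle release genes split by member, with a share of rises near the 26.2% of all tested genes. Of 40 genes 37 were tested, with 19 lower and 9 higher (median log2 change -0.27, 14-library calls 0 and 3). Syt7, a calcium sensor of slow release, fell 2.71-fold (1178 and 1251 to 495 and 401 CPM) and Syt1, the fast sensor, 2.11-fold (137 and 136 to 67.7 and 62.1 CPM). The complexin gene Cplx2 fell 2.14-fold (969 and 1040 to 540.0 and 398 CPM) while Cplx1 rose 4.13-fold (3.22 and 3.37 to 12.7 and 14.6 CPM). Rph3al, a Rab effector, fell 3.34-fold (219 and 238 to 67.6 and 69.1 CPM), and the SNARE gene Snap25 1.61-fold. The SNARE gene Stx1a (1.72-fold) and the small GTPase genes Rab3b (1.39-fold) and Rab3c (1.4-fold) rose. Synaptophysin, Syp, was called 1.29-fold higher (128 and 151 to 177 and 183 CPM), a call that did not stand without day 0 replicate 1.

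Of 44 voltage-gated channel genes 35 were tested, with 17 lower and 7 higher (median log2 change -0.21, 14-library calls 3 and 3). The calcium channel genes Cacna1h (482 and 461 to 211 and 207 CPM, 2.26-fold lower) and Cacna1g (1.04 and 0.936 to 12.1 and 12.8 CPM, 12.5-fold higher), both of the T type, went opposite ways. The sodium channel genes Scn9a (2.11-fold) and Scn3a (2.01-fold) fell. Monoamine genes were called lower in 6 of 12 tested of 17, with 1 higher (median log2 change -0.29, 14-library calls 0 and 1). Ddc, the decarboxylase that makes dopamine and serotonin, fell 3.71-fold (351 and 374 to 117 and 78.7 CPM), Tph1, which starts serotonin synthesis, 3.29-fold, and Th, which starts catecholamine synthesis, 1.95-fold (140.0 and 142 to 77.8 and 66.9 CPM).

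Regulators of neuronal transcripts moved in both directions, with 8 higher and 8 lower (median log2 change -0.15, 14-library calls 2 and 1) of 22 tested out of 23, and 4 and 5 higher without day 0 replicate 1 and replicate 2. REST, the repressor of neuronal genes, rose from 2 counts at day 0 to 1.46 and 1.94 CPM, with a count ratio of 18.1 with a 95% counting interval of 4.67 to 155. Its corepressor gene Rcor2 fell 2.1-fold (124 and 128 to 59.7 and 60.4 CPM), and Srrm4, a splicing factor that silences REST in neurons, fell 1.77-fold (52.7 and 49.6 to 30.8 and 27.1 CPM). A published set for the neuroendocrine state was listed as 26 symbols, of which 25 were in the count table. Of these 22 were tested, 11 were lower and 4 higher (median log2 change -0.18, 14-library calls 1 and 1), the latter being Bex1 (3.16-fold), Fam57b (2.00-fold), Sez6 and Syp. Of the 25 non-neuroendocrine counterparts of that set 14 were higher and 3 lower (median log2 change 2.22, 14-library calls 10 and 0) of 25 tested. The ephrin receptor gene Epha2 (0.758 and 0.187 to 76.1 and 92.3 CPM, 174-fold) was among the former.

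Proliferation genes fell without an exception in the mitotic list. All 38 genes of a G2/M and mitotic list were tested and all 38 were called lower, 17 of them at least 2-fold, with a median log2 change of -0.93 (14-library calls 0 and 20). Mki67, which encodes the Ki-67 antigen, was at 1113 and 1209 CPM at day 0 and 562 and 574 CPM at day 3, 2.04-fold lower (edgeR log2 change -1.03, SE 0.07, adjusted p = 1.73e-11). Top2a, the topoisomerase that untangles sister chromatids, fell 2.12-fold (1035 and 1073 to 488 and 508 CPM), and the cyclin genes Ccnb1 (2.24-fold), Ccnb2 (121 and 117 to 54.2 and 61.2 CPM, 2.06-fold) and Ccnf (2.58-fold) fell as well. The centromere gene Cenpf (2.35-fold), the spindle gene Nusap1 (2.35-fold) and the mitotic kinase genes Plk1 (2.08-fold) and Cdk1 (1.64-fold) followed. Days did not overlap for the genes named here, which with 2 libraries a day can occur without any change. In the fit of all 14 libraries neither Mki67 (edgeR adjusted p = 0.144) nor Top2a (edgeR adjusted p = 0.0504) was called.

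Of 48 DNA replication and S phase genes 44 were called lower and 0 higher (median log2 change -0.53, 14-library calls 0 and 16), and without day 3 replicate 1 1 gene, Cdc7, was called higher. The ribonucleotide reductase gene Rrm2 fell 2.76-fold (151 and 152 to 56.2 and 53.9 CPM), Uhrf1, which copies DNA methylation, 2.45-fold (108 and 112 to 47.9 and 42 CPM), and Tyms, thymidylate synthase, 2.06-fold. The helicase gene Mcm2 fell 1.29-fold (274 and 282 to 218 and 211 CPM) and the sliding clamp gene Pcna 1.57-fold (249 and 266 to 169 and 159 CPM). DNA repair and checkpoint genes were lower in 24 of 31 tested, with 2 higher (median log2 change -0.56, 14-library calls 0 and 5). The higher pair were Fanca and Xrcc3, of which 1 stood without either day 0 library and 0 without day 3 replicate 2, and the lower ones included Brca1 (2.22-fold) and Fanci (2.51-fold). Chromatin genes of the PRC2, DNA methylation and deacetylase classes were lower in 14 of 27, with 2 higher (median log2 change -0.24, 14-library calls 1 and 2). They included the methyltransferase gene Ezh2 (1.52-fold) and Hdac9 (27.1 and 24.6 to 10.6 and 6.55 CPM, 3.04-fold), whereas Hdac7 rose 3.49-fold.

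Promoters of 2 mitotic genes are shown because their windows carry several CCAAT boxes, the letters bound by the factor NF-Y. They are RefSeq sequence on GRCm38.p6, the 250 bases before the start read 5′ to 3′ along the gene, and capitals mark CCAAT or its reverse complement ATTGG.
Top2a (chr11:99024190-99024439, minus strand): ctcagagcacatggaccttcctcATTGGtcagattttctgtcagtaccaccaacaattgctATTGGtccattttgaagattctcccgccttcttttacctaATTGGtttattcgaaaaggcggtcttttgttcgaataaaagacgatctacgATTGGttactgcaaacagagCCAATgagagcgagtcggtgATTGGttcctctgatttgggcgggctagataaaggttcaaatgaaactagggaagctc
Ccnb2 (chr9:70421555-70421804, minus strand): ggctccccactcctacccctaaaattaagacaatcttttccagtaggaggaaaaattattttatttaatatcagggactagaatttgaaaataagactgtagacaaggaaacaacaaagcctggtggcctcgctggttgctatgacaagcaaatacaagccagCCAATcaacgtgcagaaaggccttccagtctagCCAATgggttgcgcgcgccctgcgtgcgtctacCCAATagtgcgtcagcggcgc
The Top2a window held 6 matches and the Ccnb2 window 3, which begin 87, 54 and 21 bases before the start. On either strand of the windows of 300 bases CCAAT occurred in 26 of 34 (76.5%) for the 32 matched mitotic genes, out of 38, and in 27 of 47 (57.4%) for 40 matched replication genes, out of 48. It occurred in 37.4% of all 32851 windows. Hippo regulators, with 9 of 28 (32.1%), and alveolar type I markers, with 7 of 24 (29.2%), lay under that share.

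**Figure D4:**
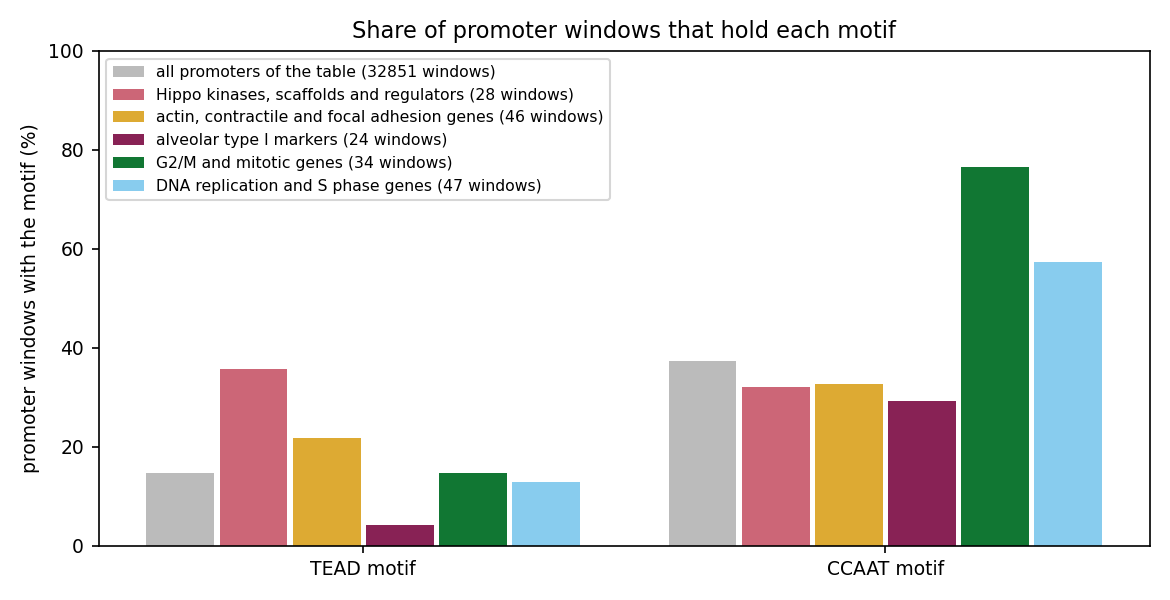
Percentage of RefSeq promoter windows of 300 bases (vertical axis) that hold the TEAD letters or the CCAAT letters on either strand, for all windows in grey and for 5 gene lists in colour, without error bars. TEAD letters reach 35.7% for Hippo regulators against 14.7% of all windows, and CCAAT reaches 76.5% for mitotic genes against 37.4%.

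The genes of the G1 phase moved apart. Of 27 genes 26 were tested, 6 were higher and 14 lower (median log2 change -0.21, 14-library calls 2 and 2). The share of rises was near the 26.2% of all tested genes. The D cyclin genes Ccnd1 (46.9 and 44.5 to 94.2 and 86.8 CPM, 1.98-fold) and Ccnd3 (2.08-fold) rose, and Ccnd2 had 0 counts in all 4 libraries. The E cyclin gene Ccne2 (1.69-fold) and the E2F factor genes E2f1 (1.42-fold), E2f2 (2.25-fold) and E2f8 (2.31-fold) fell. Among CDK inhibitors, Cdkn2b, which encodes p15, rose 3.01-fold (9.48 and 9.93 to 27.2 and 31.1 CPM) and Cdkn2a 1.48-fold (70.7 and 60.4 to 86.2 and 108 CPM), while Cdkn1c (1.7-fold) and Cdkn2c (1.44-fold) fell. Cdkn1a, which encodes p21, was at 337 and 357 CPM at day 0 and 372 and 495 CPM at day 3, a call that did not stand without day 0 replicate 1 or day 3 replicate 2. Cdkn1b was at 357 and 340.3 CPM at day 0 and 339 and 327 CPM at day 3 and was not called.

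Genes of the BCL2 family were called in both directions. Bcl2l1, which encodes BCL-XL, rose 2.94-fold (143 and 146 to 399.5 and 452 CPM), Bcl2 3.17-fold (3.41 and 4.87 to 12.9 and 13.5 CPM), Bcl2l2 2.26-fold and Mcl1 1.42-fold. The BH3-only genes Bmf (86.2 and 96.1 to 49.6 and 39.5 CPM, 2.05-fold), Bcl2l11 (1.78-fold) and Hrk (1.76-fold) fell, while Bid, of the same class, rose 2.25-fold. Over the BCL2 and caspase list of 26 genes, 7 of 25 tested were higher and 10 lower (median log2 change -0.16, 14-library calls 2 and 0). Fewer were lower without day 3 replicate 1, and the share of rises was near the 26.2% of all tested genes.

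AP-1 factors, which often share enhancers with TEAD, rose in 7 of 13 tested of 14, with 1 lower (median log2 change 0.36, 14-library calls 3 and 0, 0 lower without day 0 replicate 2). Jdp2, a dimer partner of JUN, rose 42.4-fold (0.853 and 1.12 to 41 and 43.9 CPM), Fosl2 3.75-fold (80.3 and 89.7 to 285 and 353 CPM) and Fos 3.15-fold (26.8 and 24.5 to 70.5 and 91 CPM). Jun was at 185 and 191 CPM at day 0 and 206 and 205 CPM at day 3 and Fosl1 at 1.33 and 1.41 CPM at day 0 and 1.37 and 1.48 CPM at day 3, and neither was called. Serum response and immediate early genes were higher in 9 of 15 tested of 16 and lower in 1 (median log2 change 0.38, 14-library calls 2 and 0). Egr1 (3.05-fold) and Ier3 (42.2 and 33.3 to 129.8 and 195 CPM, 4.31-fold) rose and Klf10 fell 1.82-fold.

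Feedback genes of the MAP kinase pathway rose in 11 of 18 tested of 19, with 1 lower (0 lower without day 0 replicate 2) and a median log2 change of 1.09 (14-library calls 3 and 0). The phosphatase genes Dusp6 (32.3 and 32.2 to 67.2 and 77.8 CPM, 2.25-fold) and Dusp5 (3.18-fold), Spry2 (2.77-fold), Phlda1 (8.06 and 9.83 to 46.7 and 50.4 CPM, 5.42-fold) and the ETS factor gene Etv4 (9.06-fold) were among them. Growth factors and their receptors were higher in 16 of 36 tested of 47 and lower in 6 (median log2 change 0.58, 14-library calls 3 and 1). The ligand genes Hbegf (5.69 and 5.53 to 77.2 and 82.4 CPM, 14.2-fold), Pdgfb (9.57 and 10.9 to 61 and 76.5 CPM, 6.73-fold) and Igf2 (927 and 982 to 1703 and 1746 CPM, 1.81-fold) rose, and Fgf1 rose from 3 counts to 27.9 and 33.5 CPM. Of receptors, Fgfr3 (7.31-fold) and Erbb2 (2.76-fold) rose, Egfr was at 91.2 and 93.7 CPM at day 0 and 95.5 and 98.5 CPM at day 3 without a call, and Kit (90.2 and 90.5 to 43 and 37.7 CPM, 2.24-fold), Ret (1.66-fold) and Ntrk2 (2.18-fold) fell.

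Wnt genes were higher in 13 of 36 tested of 47 and lower in 8 (median log2 change 0.23, 14-library calls 4 and 1). The share of falls was near the 22.3% of all tested genes. The ligand genes Wnt7a, Wnt7b, Wnt6 and Wnt4 rose, Wnt7a from 0.474 and 0.375 to 24.9 and 28.1 CPM (60.9-fold), Wnt7b 28.1-fold, Wnt6 from 0 counts to 5.18 and 5.72 CPM and Wnt4 2.25-fold, together with the receptor gene Fzd5 (3.65-fold). Of genes known for feedback on beta-catenin signalling, Axin2 (24.9 and 24 to 10.8 and 7.66 CPM, 2.65-fold), Nkd1 (70.05 and 77.4 to 37.3 and 36.5 CPM, 2.00-fold) and Notum (2.06-fold) fell, and so did the ligand gene Wnt3 (2.77-fold) and the antagonist gene Wif1 (21.2 and 26.8 to 7.91 and 7.1 CPM, 3.2-fold).

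In the TGF-beta and BMP list of 40 genes 12 of 35 tested were higher and 8 lower (median log2 change 0.08, 14-library calls 2 and 0). Fewer were lower without day 0 replicate 1, and the share of falls was near the 22.3% of all tested genes. Bmp6 rose 7.73-fold (10.3 and 11.1 to 73.5 and 91.8 CPM), Smad3 5.93-fold (1.71 and 1.12 to 8.2 and 8.67 CPM) and Tgfb3 3.05-fold. The Notch list of 32 genes had 9 higher and 9 lower (median log2 change -0.11, 14-library calls 1 and 0) of 27 tested. Notch2 rose 1.89-fold (14.3 and 13.4 to 26.7 and 25.8 CPM) while Notch1 was at or under 0.284 CPM in all 4 libraries. The Notch target gene Hey1 fell 1.84-fold (47.6 and 43.1 to 23.8 and 25.4 CPM), the inhibitory ligand gene Dll3 1.75-fold (30.1 and 29.2 to 18.9 and 14.9 CPM), and Jag1 was at 36.8 and 33.7 CPM at day 0 and 35 and 37 CPM at day 3 without a call. Of the MYC family, Myc rose 2.37-fold (30.1 and 29.4 to 70.2 and 70.9 CPM), Mycl fell 1.48-fold (79.7 and 74.3 to 50.1 and 53.8 CPM) and Mycn was at 2.94 and 2.44 CPM at day 0 and 3.91 and 1.75 CPM at day 3. In the MYC network list 3 genes were higher and 7 lower (median log2 change -0.19, 14-library calls 0 and 1) of 13, with 1 higher without either day 0 library or by library totals. Rises in that list were near the 26.2% share of all tested genes.

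Interferon response genes were higher in 11 of 30 tested of 32 and lower in 5 (median log2 change 0.36, 14-library calls 1 and 0), with Ifit2 2.69-fold higher and Usp18 1.74-fold lower. MHC class I genes were higher in 5 of 18 and lower in 0 (median log2 change 0.21, 14-library calls 0 and 0). Fewer were higher without day 3 replicate 2, and the share of rises was near the 26.2% of all tested genes. B2m, the shared light chain, rose 2.86-fold (10.1 and 10.2 to 24.5 and 33.6 CPM) and reached 411 ± 94.7 CPM at day 21. The checkpoint ligand gene Cd274 rose 3.39-fold (8.06 and 6.18 to 21.4 and 26.8 CPM), against 122 ± 0.0321 CPM at day 21. Reads of the class I heavy chain genes may be shared among near-identical copies.

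Icam1, an adhesion ligand for leukocytes, was an exception in size, at 1.04 and 1.59 CPM at day 0 and 267 and 334 CPM at day 3 (226-fold; edgeR log2 change 7.82, SE 0.17, adjusted p = 7.78e-22). Of cytokine, chemokine and NF-kB genes 7 of 21 tested of 36 were higher and 3 lower (median log2 change 0.03, 14-library calls 3 and 0). Cxcl16 (8.15 and 6.74 to 59.1 and 80.4 CPM, 9.37-fold), the colony-stimulating factor gene Csf1 (7.56-fold) and the TWEAK receptor gene Tnfrsf12a (31.1 and 29.4 to 231 and 304 CPM, 8.85-fold) rose, and Nfkbia fell 1.64-fold. Surface antigens of the disease were higher in 14 of 23 tested of 24 and lower in 5 (median log2 change 0.69, 14-library calls 5 and 0). Cd276 rose 1.68-fold, Dll3 and Epcam fell as given above, and Cd24a fell 1.28-fold.

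Most sterol synthesis genes were called lower in the fit of 8 libraries and few in that of 14, where Insig1 (edgeR adjusted p = 0.132) and Hmgcs1 (edgeR adjusted p = 0.265) were not called. Of 35 cholesterol and fatty acid genes 25 were called lower and 2 higher (median log2 change -0.51, 14-library calls 0 and 4). Insig1, a sterol-sensing retention factor, fell 2.38-fold (483 and 446 to 203 and 188 CPM), and Hmgcs1, an early enzyme of sterol synthesis, 1.87-fold (381 and 353 to 189 and 204 CPM). Acss2, which makes acetyl-CoA from acetate, fell 2.49-fold. Acaca, which starts fatty acid synthesis, rose 1.75-fold, and Fasn was at 274 and 284 CPM at day 0 and 296 and 257 CPM at day 3 with overlapping days.

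Lysosome and autophagy genes rose by small amounts, in 23 of 44, with 1 lower and a median log2 change of 0.22 (14-library calls 2 and 0). The cathepsin genes Ctsl (1.87-fold), Ctsd (1.7-fold) and Ctsb (1.58-fold) and Gabarapl1 (119.8 and 124 to 286 and 372 CPM, 2.69-fold) were among them, and 16 were higher and 0 lower without day 0 replicate 1. Without day 0 replicate 2 or day 3 replicate 2 also 0 were lower. Stress response genes were called in both directions, with a share of rises near the 26.2% of all tested genes. Of 30 genes 8 were higher, with the serine synthesis gene Phgdh (13.7 and 15.2 to 72.3 and 77.2 CPM, 5.19-fold) and Asns (1.48-fold), and 14 lower (median log2 change -0.12, 14-library calls 0 and 0, 9 lower without day 0 replicate 2), with Ddit4 (1.64-fold) and chaperone genes such as Hsp90b1 and Pdia4. Antioxidant and detoxifying genes were higher in 19 of 39 tested of 41 and lower in 7 (median log2 change 0.32, 14-library calls 2 and 0, 3 lower without day 0 replicate 2 and 4 without day 3 replicate 1), with the drug exporter gene Abcc3 (5.21 and 4.31 to 25.7 and 23.7 CPM, 5.18-fold) among the former.

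Oxidative phosphorylation and ribosome lists held fewer calls than the background. Nuclear-encoded oxidative phosphorylation genes had 11 higher and 7 lower (median log2 change 0.02, 14-library calls 0 and 0) of 58, with 6 and 3 without day 0 replicate 1, 5 and 4 without day 0 replicate 2 and 6 and 4 without day 3 replicate 2. Cytosolic ribosomal protein genes had 11 higher and 2 lower (median log2 change 0.12, 14-library calls 1 and 0) of 75 tested, with 5 higher without day 0 replicate 2 and 4 without day 3 replicate 2, and their reads may be shared with processed copies. Ribosome biogenesis genes had 5 higher and 4 lower (median log2 change 0.04, 14-library calls 1 and 0) of 41, with 0 lower without day 0 replicate 1 and 2 without day 0 replicate 2 or day 3 replicate 2. Glycolysis and hypoxia genes had 10 higher, with the glucose transporter gene Slc2a1 (1.5-fold) and Eno1 (1.52-fold), and 9 lower (median log2 change -0.01, 14-library calls 0 and 0) of 32, with 5 lower without day 0 replicate 1 or day 3 replicate 1. Both shares of the glycolysis list were not far from the background of 26.2% and 22.3%.

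Most markers of other cell types were at or near 0, and their part in the results was not tested. Fibroblast markers summed to 6.65 to 7.77 CPM at day 0 and 8.59 to 9.32 CPM at day 3 over 12 genes, of which 4 had 0 counts at day 0, and 3 of 7 tested (14-library calls 0 and 0) were called higher (Fap, Pdgfra and Pdpn, the last also an alveolar type I marker) and 1 lower (Thy1). The calls of Fap and Thy1 did not stand without day 0 replicate 1 or day 3 replicate 2, nor that of Fap without day 0 replicate 2. Leukocyte markers summed to 7.02 to 7.58 CPM and 5.66 to 6.83 CPM over 10 genes, with Ptprc, the defining CD45 gene, at 0 counts in all 4 libraries. The higher leukocyte gene was Csf1r, the receptor of Csf1, with 0 counts at day 0 and 1.66 and 3.32 CPM at day 3 (at least 17.8-fold higher), and the lower one Lyz2. The endothelial sum of 370.5 to 384.7 CPM at day 0 and 226.2 to 238.3 CPM at day 3 was nearly all Vwf (369.8 and 384 to 237 and 224 CPM, 1.64-fold lower), and Cdh5 had 0 counts throughout. Tuft lineage genes summed to 3.56 to 4.74 CPM and 4.15 to 5.47 CPM over 10 genes, with 2 higher and 1 lower of 6 tested (14-library calls 0 and 0), 1 and 0 without day 0 replicate 1 or day 3 replicate 2 and 1 higher without day 3 replicate 1. With only days 0 and 3 in the fit, 0 tuft genes and 1 fibroblast gene were called higher, and DESeq2 called 0 tuft genes lower.

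The direction of the first 3 days continued to day 7 for each of the 30 genes named by size, as means of 2 libraries. All 15 rises stood higher at day 7 than at day 3, and all 15 falls stood lower. By day 21 13 of the 15 rises were still above day 3, the exceptions including P2rx2 with 35.5 ± 1.9 CPM. Of the 15 falls 6 stood above their day 3 mean at day 21, among them Dcpp2 with 27.4 ± 4.9 CPM, and 2 above their day 0 mean. Ager stood at 4517 ± 326 CPM at day 7 and 1963 ± 318 CPM at day 21, Clic5 at 572 ± 12.3 CPM at day 7 and 902 ± 1.53 CPM at day 21 and Msn at 873 ± 24.5 CPM at day 7 and 1126 ± 24.2 CPM at day 21. St18 stood at 14.5 ± 1.87 CPM at day 7 and 26.6 ± 3.23 CPM at day 21. Krt4 was different, with 354 ± 10.5 CPM at day 7 and 72.8 ± 0.943 CPM at day 21, and so was Cdkn1a, with 199 ± 2.4 CPM at day 7 and 103 ± 2.4 CPM at day 21. These later values share their day 0 libraries with the comparison above and are given side by side without a test.

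**Figure D5:**
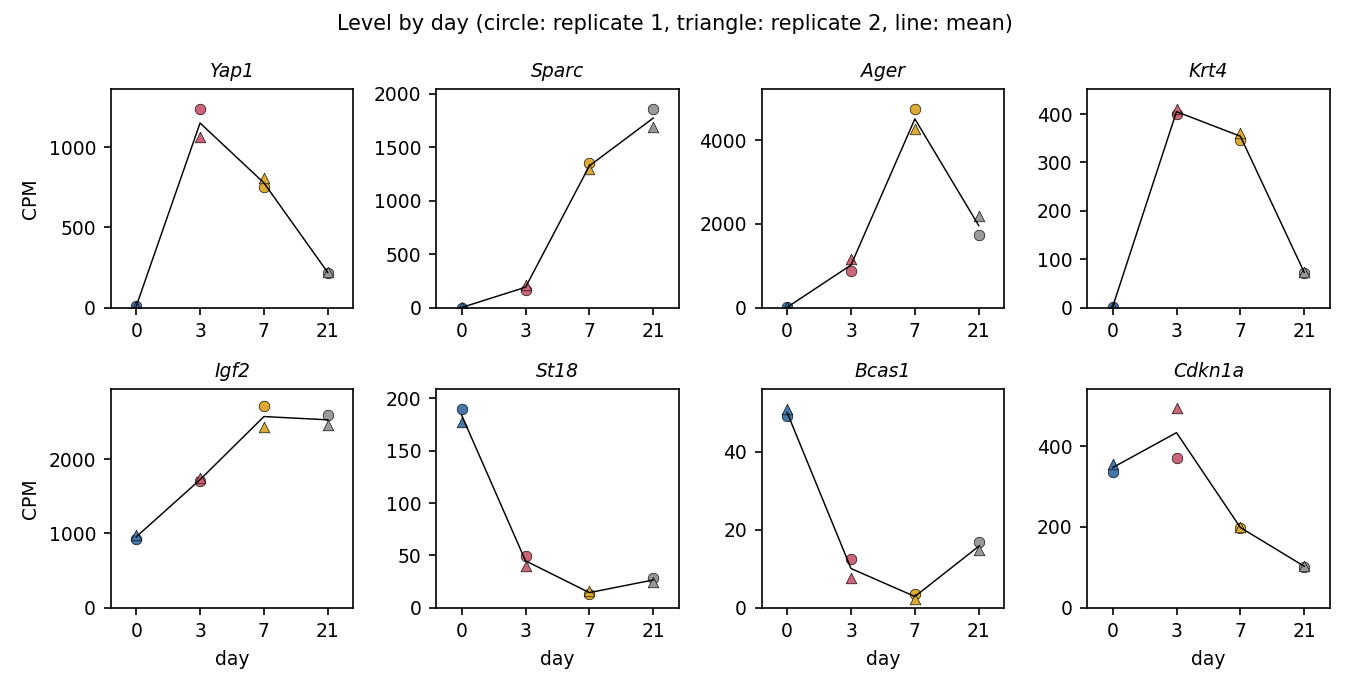
Level in CPM (vertical axes, each from 0) of 8 genes at days 0, 3, 7 and 21 (horizontal axis, not to scale in time), with circles for replicate 1, triangles for replicate 2 and a line through the means of 2 libraries. Yap1 and Krt4 have their highest mean at day 3, Ager at day 7 and Sparc at day 21, and St18 and Bcas1 fall from day 0 to day 7.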

How the data were processed

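Poly(A) RNA of the lines was sequenced. STAR 2.4.2, featureCounts and the build mm10 are named in the submitters' processing notes. The annotation and the use of strand are not given in the sources used here, so a gene and an overlapping antisense gene may share reads. The table as deposited by the authors holds raw counts for 32926 symbols, of which 30152 are in GENCODE M21, used for coordinates only.

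Counts of the 8 YAP5SA libraries (days 0, 3, 7 and 21, n = 2 each) were filtered with filterByExpr, scaled by TMM and fitted in edgeR (4.0.16, under R 4.3.3) with robust quasi-likelihood dispersion, then tested for day 3 against day 0, with Benjamini-Hochberg adjustment over 13996 genes and calls at 0.05. The biological coefficient of variation was 0.0548. CPM use the same scaling. Where a day had 0 counts the fold is a lower bound from 3 counts over the group, and 1 to 3 counts as a count ratio with its 95% counting interval. Above 3 counts the edgeR fold is given without an interval, and where a day was under about 1 CPM it is uncertain. Each SE is the absolute log2 change divided by the square root of the F value of the test. Such an SE does not describe the counting error of few counts. Leading genes were the 15 largest rises and 15 largest falls among called genes that reached 10 CPM on their higher day, without overlap and without a clone name, after Yap1 and the floxed genes, and then members of 57 gene lists, which matched 1590 genes. The members, lists and rule were chosen with earlier results of these data known. Replicate numbers carry no stated pairing of the libraries. Counts were also simulated for all days from the day 0 proportions, with a common spread and few changed genes. There the test recovered 84 of 92 true 2-fold changes and 91 of 95 true 4-fold changes, with 5 false calls among 12774 unchanged genes. The real libraries held far more changes and a less even spread, so these rates do not describe the real comparison. Alternatives were DESeq2 size factors, library totals, no count filter, at least 1 CPM in 2 libraries, DESeq2 1.42.0, limma-voom (limma 3.58.1), a 2-fold threshold test, days 0 and 3 alone, all 14 libraries, a replicate block and leaving out each library. Protein sequences were not used here, and some genes, alleles and a list that needs them are not reported here.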

Additional observations from a re-analysis of the deposited data

How the results depend on the processing

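The main counts were 6801 called genes, 3673 higher, 3128 lower and 1942 changed at least 2-fold. A test against a 2-fold change called 1035 (854 higher and 181 lower, all 1035 at least 2-fold), and a fit of all 14 libraries called 1041 (792 higher, 249 lower, 776 at least 2-fold). The former asks for a larger change by construction, and for the latter the cause was not tested. The other settings stayed within 1.5 times these counts. DESeq2 called 5576 genes and limma-voom 6828, and library totals gave 3224 higher and 3705 lower. Leaving out each library in turn called 5341 to 6372 genes (2920 to 3468 higher, 2391 to 2904 lower and 1672 to 2098 at least 2-fold). With the replicate number as a block 6707 were called (3632 higher, 3075 lower and 1937 at least 2-fold). The labels state no pairing by replicate number. Deviations from the day means correlated between days 0 and 3 at -0.0525 across genes, which cannot show how the libraries were made. The blocked fit ended the call of 1 named gene, Ldha. No called named gene changed direction under any alternative run. The calls of 217 of 363 named genes were lost with all 14 libraries, among them 11 of the 15 largest falls, Ctgf, Insm1, Mki67 and Top2a, while the 15 largest rises were all called. In that fit the sterol list went from 25 to 4 called lower, the lysosome list from 23 to 2 higher, the exocytosis list from 19 to 3 lower, the neuroendocrine factors from 16 to 4 lower and the S phase list from 44 to 16 lower. Leaving out day 0 replicate 1 ended 24 of these calls, day 0 replicate 2 ended 22, day 3 replicate 1 ended 8 and day 3 replicate 2 ended 22. Genes under about 1 CPM rest on few counts.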

Other observations

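The day 3 libraries differed from each other along the direction of the later change. Among 932 genes at least 4-fold higher at day 7 than at day 0, 697 (74.8%) were higher in day 3 replicate 2 than in replicate 1, and among 335 genes at least 4-fold lower at day 7, 55 (16.4%) were. Over all 13996 tested genes the share was 51.0%. The median log2 difference between the replicates was 0.15 for the former set, -0.21 for the latter and 0.0043 for all genes. Folds and differences in this comparison were computed on CPM plus 1, unlike the edgeR folds above. Yap1 itself was lower in replicate 2 (1067 CPM) than in replicate 1 (1239 CPM). In the day 21 libraries the same sets gave 61.9% and 49.0%.

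Axon guidance genes, whose products steer neurites and also act in epithelia, were higher in 18 of 43 tested of 50 and lower in 13 (median log2 change 0.20, 14-library calls 5 and 2). Called rises included Sema3b, Sema7a, Nrp2 and Efna1, and called falls included Robo1, Robo2 and Unc5a. Neurofilaments went opposite ways, with Nefl 2.23-fold lower (79.3 and 85.1 to 40.03 and 34 CPM) and Nefm 2.1-fold higher (3.89 and 4.21 to 8.1 and 8.95 CPM). Imprinted growth genes were higher in 5 of 11 tested of 18 and lower in 2 (median log2 change 0.28, 14-library calls 0 and 0). Amino acid transporter genes were called higher in 7 and lower in 7 (median log2 change -0.05, 14-library calls 1 and 1) of 21 tested of 25 (4 higher without day 0 replicate 2 or day 3 replicate 2, and 4 lower without the latter), and thrombin, lipid and purine receptor genes in 3 and 1 (median log2 change 0.56, 14-library calls 2 and 0) of 13 tested of 22 (0 lower without day 3 replicate 2). Neural and other intermediate filament genes were higher in 3 and lower in 4 (median log2 change -0.06, 14-library calls 0 and 0) of 13 tested of 15.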
